A study of Mus musculus with 6 samples.

Results

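Interferon-stimulated genes are the antiviral effectors, nucleic acid sensors and signalling components that cells switch on after interferon binds its receptor. The set described here holds 35 mouse genes, chosen by name for that known response, and 34 of them had a named probe among 19053 genes on the array. For each gene the probe with the highest mean signal over the 6 arrays was used. Of the 35 genes, 27 were detected well enough to be tested, 7 were not, and for Ifi44 the table used here names no probe.

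The cells were B220+CD43+ cells sorted from mouse bone marrow, which the labels call pre-B cells, and their total RNA was read on 6 Illumina BeadChip arrays with a single dye. The genotype is given as Fnip 1 -/- for 3 arrays and as wild type (Wt) for the other 3, with no treatment named for either group. The product of Fnip1 binds folliculin and takes part in nutrient and energy sensing. The labels used here state no strain, age, form of the mutation or number of mice per sample, so p-values measure only the spread between these samples. Scanner columns of the Fnip1-null group are also marked LPAB - Yugioh, which is not explained, and those of the wild-type group are not. Letters A, B and C name the arrays of a group in column order.

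The targeted gene was examined first. The brightest Fnip1 probe stood at 10.01, 9.97 and 10.06 (log2 normalized intensity) on the arrays labelled Fnip1-null and at 8.90, 9.11 and 9.16 on those labelled wild type. Fnip1 signal was thus higher where the label says null (log2 fold change 0.95, limma adjusted p = 0.000665), and directions below are those of the labels; where the probes lie relative to the changed part of the gene is not stated. Of 45281 probes, 17442 to 18294 were detected on an array, and precision is limited by there being only 3 arrays a group. Of 10 early B-lineage markers 8 had a named probe and 7 were detected on every array, among them Cd79b, Vpreb1, Igll1, Rag1, Ptprc and Spn, which encodes CD43, whereas the Pax5 probe was not well above background on any. Of the 7 tested markers, 3 fell in the arrays labelled Fnip1-null, or 42.9% called against 13.1% of all tested genes. These were Rag1, Ebf1 and Cd79b (log2 fold changes of -2.06, -0.52 and -0.49, limma adjusted p = 7.38e-06, 0.0147 and 0.0304). The other 4 had positive log2 fold changes and did not pass (Igll1 0.36, Ptprc 0.31, Vpreb1 0.12 and Spn 0.05). Eif2s3y, a Y-linked gene, was high on array A of each group (9.45 and 9.92) and at 4.22 to 4.28 on the others. Xist was at 4.22 and 4.62 on the A arrays and between 9.51 and 10.79 on the others, so each group held RNA of both sexes and its arrays did not all come from the same animal.

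Type I interferon binds a receptor made of IFNAR1 and IFNAR2, whose kinases JAK1 and TYK2 phosphorylate STAT2. STAT2 and IRF9 are part of a complex that binds the interferon-stimulated response element in the promoters of its target genes. Interferon gamma uses another receptor and JAK2, and acts through a different element, the gamma-activated site. Many of the induced proteins act against viral RNA, and several of the set, such as USP18, restrain the signal in turn.

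The promoter sequences of the set show the element directly. RefSeq promoter windows (build GRCm38.p6, 250 bases before to 50 after a gene's start) were found for 27 of the 35 genes, and 15 of these held the core of the response element, taken as GAAA, any 2 bases and GAAA again, on either strand. Over all 27025 genes of that promoter table the share was 3.99%. The gamma-activated site, taken as TTC, any 3 bases and GAA, was in 9 of the 27 windows against 9.55% of all genes, and in Ifitm3 the motifs overlap. Excerpts are shown for genes described below, chosen from those whose window held the response element, which is in capitals. They are the only 2 members that passed the test (Stat2, chr10:128270248-128270345, + strand, and Ddx58, chr4:40239814-40239883, - strand), 3 members with a wide range over the wild-type arrays (Ifit3, chr19:34583313-34583476, + strand, Isg15, chr4:156200819-156200956, - strand, and Rsad2, chr12:26456503-26456632, - strand) and a GTPase gene whose groups did not overlap (Gbp2, chr3:142620544-142620662, + strand).
Stat2: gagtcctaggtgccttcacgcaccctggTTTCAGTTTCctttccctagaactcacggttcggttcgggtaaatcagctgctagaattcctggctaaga
Ddx58: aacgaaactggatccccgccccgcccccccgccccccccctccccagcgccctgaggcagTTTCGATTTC
Ifit3: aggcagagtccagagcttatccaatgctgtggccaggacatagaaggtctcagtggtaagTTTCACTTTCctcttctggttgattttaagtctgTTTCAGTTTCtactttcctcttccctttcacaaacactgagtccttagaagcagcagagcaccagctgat
Isg15: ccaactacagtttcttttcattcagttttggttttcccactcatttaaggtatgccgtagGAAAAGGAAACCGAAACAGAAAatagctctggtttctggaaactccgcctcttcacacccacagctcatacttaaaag
Rsad2: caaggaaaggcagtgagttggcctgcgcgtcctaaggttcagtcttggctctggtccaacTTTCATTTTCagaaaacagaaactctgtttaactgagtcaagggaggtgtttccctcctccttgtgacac
Gbp2: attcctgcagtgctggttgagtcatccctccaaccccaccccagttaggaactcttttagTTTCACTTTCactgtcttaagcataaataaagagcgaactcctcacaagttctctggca
In Isg15 the 3 matches overlap in a single run, in Ifit3 there are 2 separate matches, and in Stat2 the match lies 222 bases before the start. In Ddx58 it lies just after the start. The windows of Irf7, Oasl1 and Oasl2, which also had a wide wild-type range, held neither motif. For Usp18, Oas2 and Mx2, also of wide range, no window was found. A match describes the letters in the window and is not evidence of binding in these cells.

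The comparison asked whether the interferon-stimulated genes differ between the genotypes. Of the set, 2 of the 27 tested genes rose on the arrays labelled Fnip1-null, none fell, and 25 did not pass the test (limma, adjusted p under 0.05 over all tested probes). Over all 9676 genes tested the share called was 13.1%, with 7.89% higher and 5.25% lower, and the members' share was 7.41%. The median log2 fold change of the tested members was 0.01, as it was for all tested genes (0.01), with 14 members above 0 and 13 below (18 and 9 with arrays scaled to a common median). At an unadjusted p under 0.05 there were 5 higher members (Stat2, Ddx58, Oasl1, Gbp2 and Igtp) and 0 lower. In 4 of the 27 (Stat2, Ddx58, Igtp and Gbp2) each array labelled Fnip1-null exceeded each wild-type array, against 18.1% of all tested genes, and in 0 the reverse held, against 14.9%, which makes 33.0% in either direction. An exact two-sided permutation test of 3 arrays against 3 cannot go below p = 0.1. In sorted bulk RNA, fewer cells of a type and less RNA per cell cannot be told apart.

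**Figure D1:**
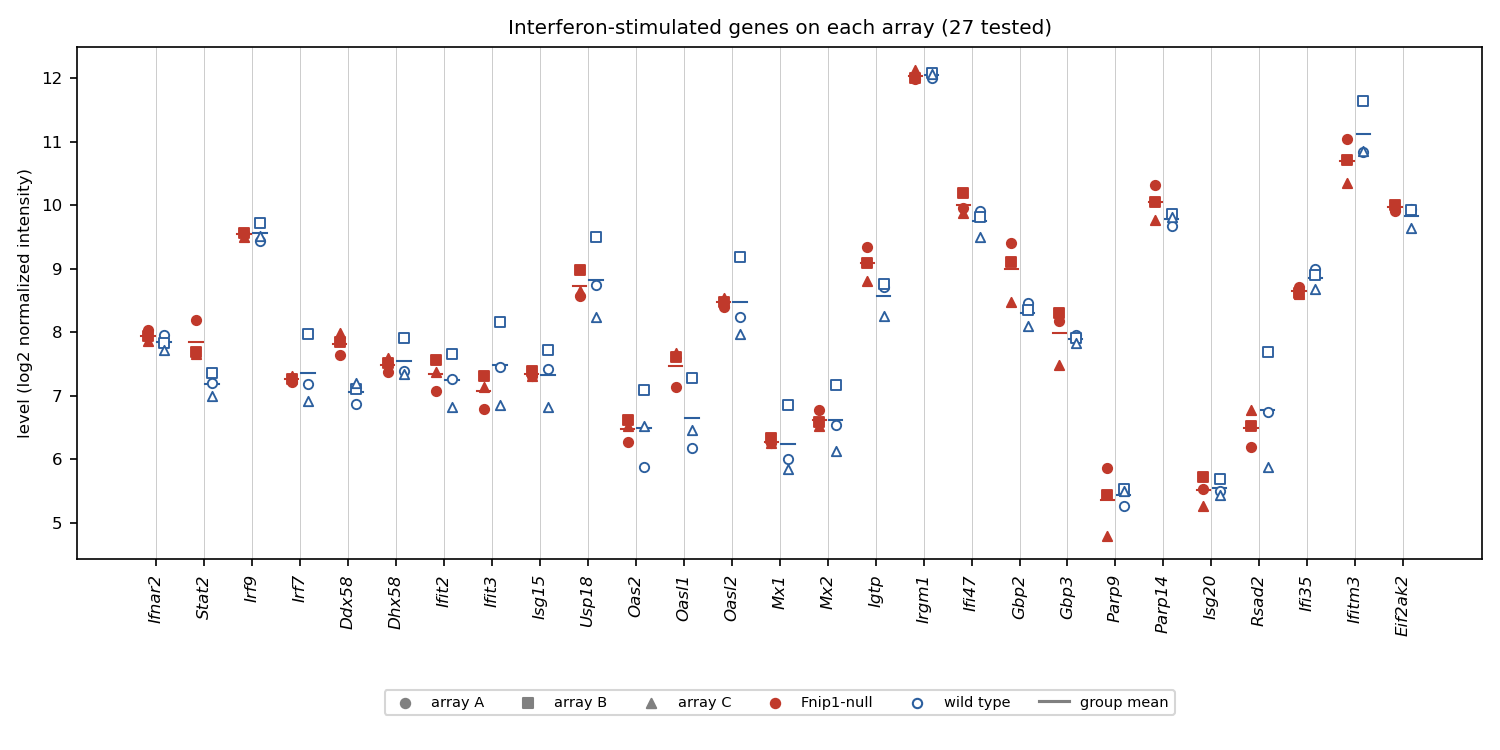
Level (log2 normalized intensity, vertical axis) of each of the 27 tested interferon-stimulated genes on each array. Filled red marks are arrays labelled Fnip1-null, open blue marks arrays labelled wild type, circles, squares and triangles are arrays A, B and C, and short lines are group means. The groups are apart in Stat2, Ddx58, Igtp and Gbp2, and in many other genes the open squares (wild type B) lie on top and the open triangles (wild type C) at the bottom. Heights of different genes come from different probes and are not comparable.

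Among the receptor and signalling genes, Stat2 was the 1 of 4 tested that passed, or 25% against 13.1% of all tested genes. Stat2, which encodes a subunit of the interferon-activated complex, stood at 8.19, 7.69 and 7.66 on the arrays labelled Fnip1-null and at 7.20, 7.35 and 6.99 on those labelled wild type. Every array labelled Fnip1-null was above every wild-type array, with array A the highest. The group means were 7.85 ± 0.30 and 7.18 ± 0.18 (log2, SD, n = 3 each), with Stat2 1.59-fold higher (limma adjusted p = 0.0265, 95% interval 1.23 to 2.06). The call was lost without array A labelled Fnip1-null (log2 fold change 0.50, limma adjusted p = 0.0518), without wild-type array A (0.68, adjusted p = 0.0675) and without wild-type array C (0.58, adjusted p = 0.0829). Its direction could not change in these fits, because the groups do not overlap.

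Irf9, the DNA-binding partner of STAT2, read 9.57, 9.57 and 9.50 on the arrays labelled Fnip1-null and 9.44, 9.72 and 9.52 on wild type. These groups overlapped, with a log2 fold change of -0.01 (95% interval -0.26 to 0.23, limma adjusted p = 0.952). Irf7, the factor that amplifies type I interferon production, read 7.21, 7.25 and 7.31 against 7.18, 7.98 and 6.91. The 3 arrays labelled Fnip1-null lay close together, between the high wild-type B and the low wild-type C. Ifnar2, a chain of the type I receptor, read 8.03, 7.93 and 7.86 against 7.96, 7.83 and 7.72, overlapping groups with a log2 fold change of 0.10 (95% interval -0.14 to 0.35). Its partner Ifnar1 was on no array well above background, at 4.25, 4.21 and 4.24 against 4.24, 4.22 and 4.24, and was not tested.

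Of the sensors of viral RNA, Ddx58 rose and its relatives did not pass or could not be tested. Ddx58, which encodes the RIG-I helicase, stood at 7.64, 7.84 and 7.98 on the arrays labelled Fnip1-null and at 6.87, 7.11 and 7.21 on those labelled wild type. The groups did not overlap, and the means of 7.82 ± 0.17 and 7.06 ± 0.17 (log2, SD, n = 3 each) differed 1.69-fold (95% interval 1.37 to 2.08, limma adjusted p = 0.00613). Ddx58 kept its call with any 1 array left out, with a log2 fold change between 0.66 and 0.85. A dimmer Ddx58 probe gave a smaller 0.28 that did not pass (limma adjusted p = 0.131). Dhx58, which encodes the related regulator LGP2, read 7.37, 7.51 and 7.59 against 7.38, 7.90 and 7.34, a log2 fold change of -0.05 (95% interval -0.41 to 0.30). Ifih1, which encodes the long-RNA sensor MDA5, was on no array well above background.

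**Figure D2:**
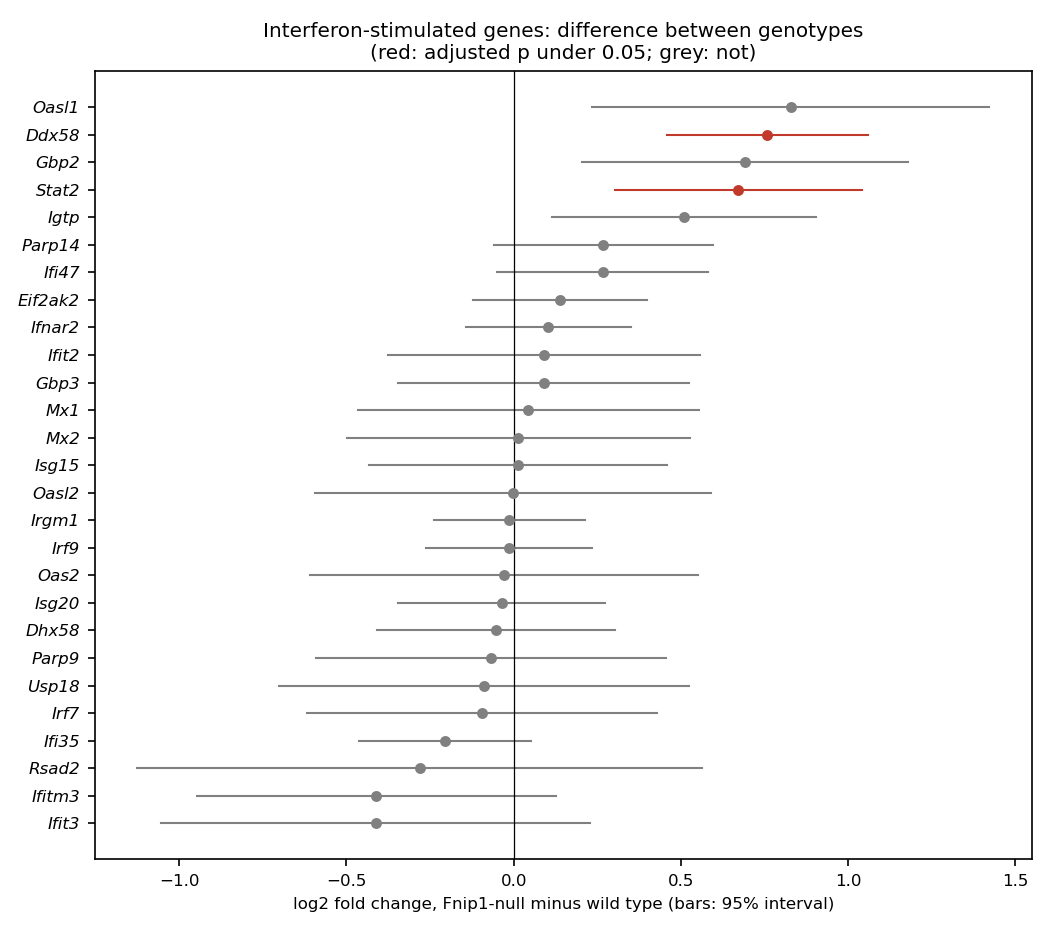
Log2 fold change (Fnip1-null minus wild type, horizontal axis) with its 95% interval for each of the 27 tested interferon-stimulated genes, ordered by size. Red marks the genes with an adjusted p under 0.05, Stat2 and Ddx58. The intervals of Oasl1, Gbp2 and Igtp also lie above 0, but these genes did not pass after adjustment.

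None of the tested genes of the ISG15 system and the IFIT family passed. Isg15, a ubiquitin-like protein gene, read 7.31, 7.39 and 7.30 on the arrays labelled Fnip1-null and 7.43, 7.71 and 6.83 on wild type. The tight first group lay inside the range of the other, with a log2 fold change of 0.01 (95% interval -0.43 to 0.46, limma adjusted p = 0.977). Usp18, the protease gene that removes ISG15 and dampens the receptor, read 8.57, 8.98 and 8.65 against 8.74, 9.49 and 8.23. Ifit3, whose product belongs to a family that binds foreign RNA ends, read 6.79, 7.30 and 7.13 against 7.44, 8.16 and 6.86, a log2 fold change of -0.41 (95% interval -1.05 to 0.23). Its relative Ifit2 gave 0.09 (95% interval -0.37 to 0.56). Ifit1 was on no array well above background.

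In the oligoadenylate synthetase family, whose products activate RNase L or resemble those that do, none of 3 tested members passed. Oasl1 had the largest difference of all tested members, at 7.13, 7.61 and 7.67 against 6.18, 7.28 and 6.47. Wild-type array B, at 7.28, lay above array A labelled Fnip1-null, so the groups overlapped. Its log2 fold change was 0.83 (95% interval 0.23 to 1.42, limma adjusted p = 0.0685). Of the dimmer probes of Oasl1, 1 gave 0.85 with limma adjusted p = 0.0382 and another 0.44 with adjusted p = 0.189, and the main probe passed without wild-type array B (1.15, adjusted p = 0.00737). Oasl2 read 8.39, 8.47 and 8.53 against 8.24, 9.19 and 7.97, and Oas2 gave -0.03 (95% interval -0.61 to 0.55). Oas1a and Oas3 were on no array well above background. The dynamin-like antiviral GTPase genes Mx1 and Mx2 gave log2 fold changes of 0.04 and 0.01 (limma adjusted p = 0.927 and 0.979).

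Of the GTPases known for their induction by interferon gamma, none of 5 passed, and 2 had fully separated groups, or 40% against 33.0% of all tested genes. Gbp2, a guanylate-binding protein gene, read 9.40, 9.10 and 8.47 on the arrays labelled Fnip1-null and 8.46, 8.35 and 8.09 on wild type. The lowest of the first group only just cleared the highest of the other. The log2 fold change was 0.69 (95% interval 0.20 to 1.18, limma adjusted p = 0.0646), and it passed without array C labelled Fnip1-null (0.95, adjusted p = 0.00712). A dimmer Gbp2 probe gave a smaller 0.28 (limma adjusted p = 0.443). Igtp, an immunity-related GTPase gene, read 9.34, 9.08 and 8.81 against 8.71, 8.76 and 8.25, also without overlap, with a log2 fold change of 0.51 (95% interval 0.11 to 0.90, adjusted p = 0.0889). Its relatives Ifi47 and Irgm1 gave 0.27 (95% interval -0.05 to 0.58) and -0.01 (95% interval -0.24 to 0.21), and Gbp3 gave 0.09 (95% interval -0.35 to 0.53). On chromosome 11, which carries Fnip1, 30 coding genes lie between Igtp and Fnip1 in the RefSeq gene order, against 102 for Ifi47 and 110 for Irgm1. Irf1 lies nearest of the genes listed here, with 9 genes between, and did not pass (0.19), although its groups did not overlap. The pathway gene Irgm2, which rose, has 31 genes between it and Fnip1, while Slfn2, which fell, lies 522 genes away. Whether this position bears on the values was not tested.

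The other effectors gave no call. Rsad2, which encodes the antiviral enzyme viperin, read 6.18, 6.52 and 6.78 against 6.75, 7.69 and 5.88, and had the widest 95% interval of the set, -1.13 to 0.56. Ifitm3, a membrane protein gene that blocks viral entry, read 11.04, 10.72 and 10.35 against 10.84, 11.64 and 10.85, overlapping groups with a log2 fold change of -0.41 (95% interval -0.95 to 0.13). Eif2ak2, which encodes the RNA-activated kinase PKR, gave 0.14, the exonuclease gene Isg20 -0.04 and Ifi35 -0.21. The ADP-ribosyltransferase genes Parp14 and Parp9 gave 0.27 and -0.07. Rtp4 was detected on only 1 array, labelled Fnip1-null, and Xaf1 on none.

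Within the wild-type group the same genes varied more than genes in general, and in a shared direction. Of the 27 tested members, 20 were highest on wild-type array B and 19 lowest on wild-type array C, where the shares over all tested genes were 27.1% and 34.2%. The range over the wild-type arrays exceeded 1 on the log2 scale in 8 members (Irf7, Ifit3, Usp18, Oas2, Oasl1, Oasl2, Mx2 and Rsad2), or 29.6%, against 1.41% of all tested genes. Rsad2 had the widest, 1.81, followed by Ifit3 with 1.30 and Usp18 with 1.26. On array B, 13 members lay above the 95th percentile of all genes' deviations from the wild-type mean, and on array C 10 lay below the 5th. These members are induced by the same signals and are not independent, and the difference in spread is given as a description with no test.

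**Figure D3:**
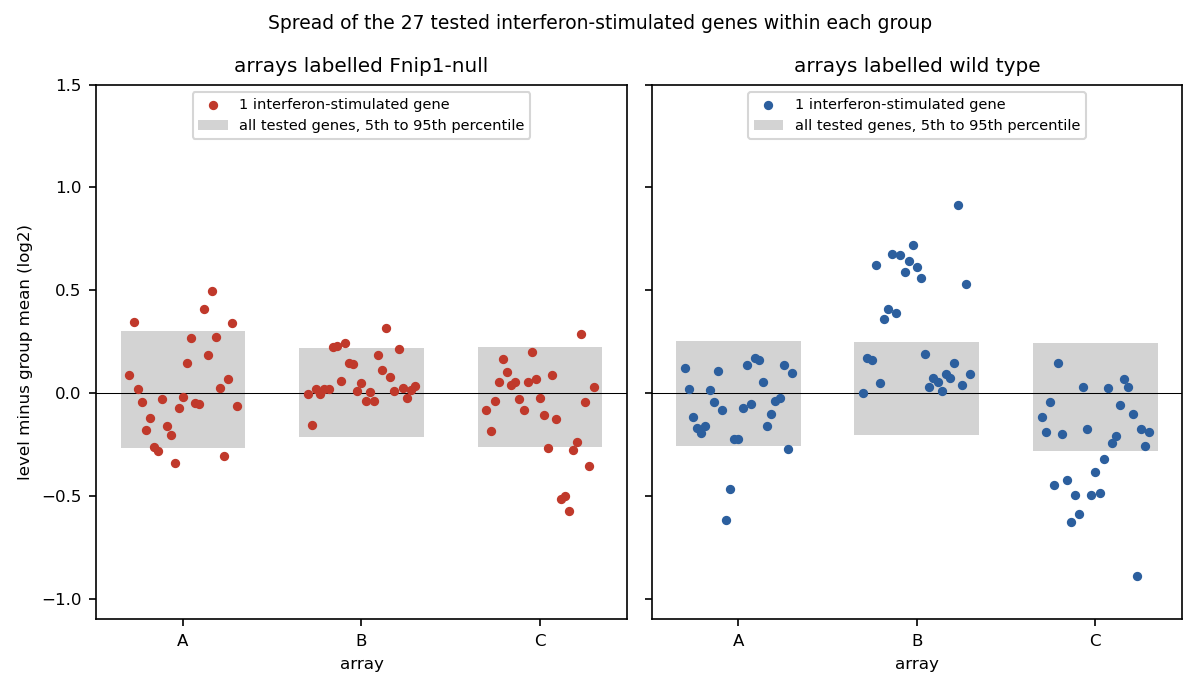
Level minus the mean of the array's own group (log2, vertical axis) for each of the 27 tested interferon-stimulated genes on arrays A, B and C of each group, with grey bars from the 5th to the 95th percentile of all tested genes. On wild-type array B 13 genes lie above the grey bar and on wild-type array C 10 lie below it.

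By their median range, though not in every gene, the members lay closer together on the arrays labelled Fnip1-null. There the range exceeded 1 in a single member, Parp9 (1.07), and the median range was 0.35 against 0.51 in wild type, while over all tested genes both medians were 0.26. Array C labelled Fnip1-null was the lowest of its group in 15 of the 27 members, or 55.6% against 31.6% of all tested genes, with Parp9, Gbp2 and Gbp3 at -0.57, -0.52 and -0.50 from the group mean. Some genes with a wide wild-type range had a narrow one on the arrays labelled Fnip1-null: Mx1 spanned 0.07, Isg15 0.09, Irf7 0.10 and Oasl2 0.14, against 1.00, 0.88, 1.07 and 1.22 in wild type. Others had the wider range on the arrays labelled Fnip1-null: Parp9 spanned 1.07, Gbp2 0.92, Gbp3 0.82 and Parp14 0.55, against 0.25, 0.37, 0.11 and 0.18 in wild type. On arrays A, B and C labelled Fnip1-null 4, 4 and 1 members lay above the 95th percentile of all genes' deviations and 3, 0 and 6 below the 5th.

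The sign of many differences turned on these arrays. Without wild-type array B, 23 of 27 members had a positive log2 fold change and the median was 0.21. Without wild-type array C, 10 were positive and the median was -0.04. The median over all tested genes stayed at 0.01 in both fits. Rsad2 moved from 0.18 without array B to -0.73 without array C, Usp18 from 0.25 to -0.38, and Isg15 from 0.21 to -0.23. In 13 members the sign differed between these fits. Stat2 and Ddx58 could not be among them, because their groups do not overlap.

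In wild type, summed marker signal of plasmacytoid dendritic cells, of monocytes and of T cells was also highest on array B. The sums are not normalized, and in every marker list, early B-lineage included, the lowest wild-type sum was on array C. By mean normalized level (log2), the wild-type early B-lineage list was instead lowest on array B (9.50, against 9.53 on C and 9.63 on A). On that scale the other lists were still lowest on array C. Plasmacytoid dendritic cells, which carry B220 and are known as strong interferon producers, were represented by 8 probes of 10 listed genes. Of these 6 were detected on every array, Siglech and Tcf4 among them, while Ccr9 and Cd300c were not well above background on any. Their summed signal lay between 17490 (array C) and 25661 (array B) in wild type and between 20661 and 24809 on the arrays labelled Fnip1-null. None of the 6 tested genes passed. The macrophage and monocyte list, with 6 probes of 8 genes, had its wild-type extremes on the same arrays, B (16140) and C (12052), and lay between 11462 and 13921 in the other group. Of its 6 tested genes 1 fell, Cd14, or 16.7% called against 13.1% of all tested genes. Neutrophil marker signal, from 6 probes of 6 genes, was instead highest on array A of each group. It spanned 7486 (array C) to 20388 in wild type and 9915 to 28434 in the other group. Natural killer marker signal, from 7 probes of 8 genes, spanned 4257 to 6579 in wild type and 3791 to 5375 in the other group. Ncr1 and Gzmb were not well above background. Of its 5 tested genes 1 fell, Eomes, or 20% called against 13.1% of all tested genes, and 4 did not pass. Eomes was dim, with means of 4.80 (Fnip1-null, detected on 2 arrays) and 5.66 (wild type). T cell marker signal, from 4 probes of 6 genes, spanned 344 (array C) to 479 (array B) in wild type and 541 to 911 in the other group. Of its 3 tested genes 1 rose, Cd3e (1.20, limma adjusted p = 0.0138), or 33.3% called against 13.1% of all tested genes. Cd3g (0.70) and Cd4 (0.08) did not pass, and Cd8a was not well above background. The part of these cells in the spread of the interferon-stimulated genes was not tested.

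**Figure D4:**
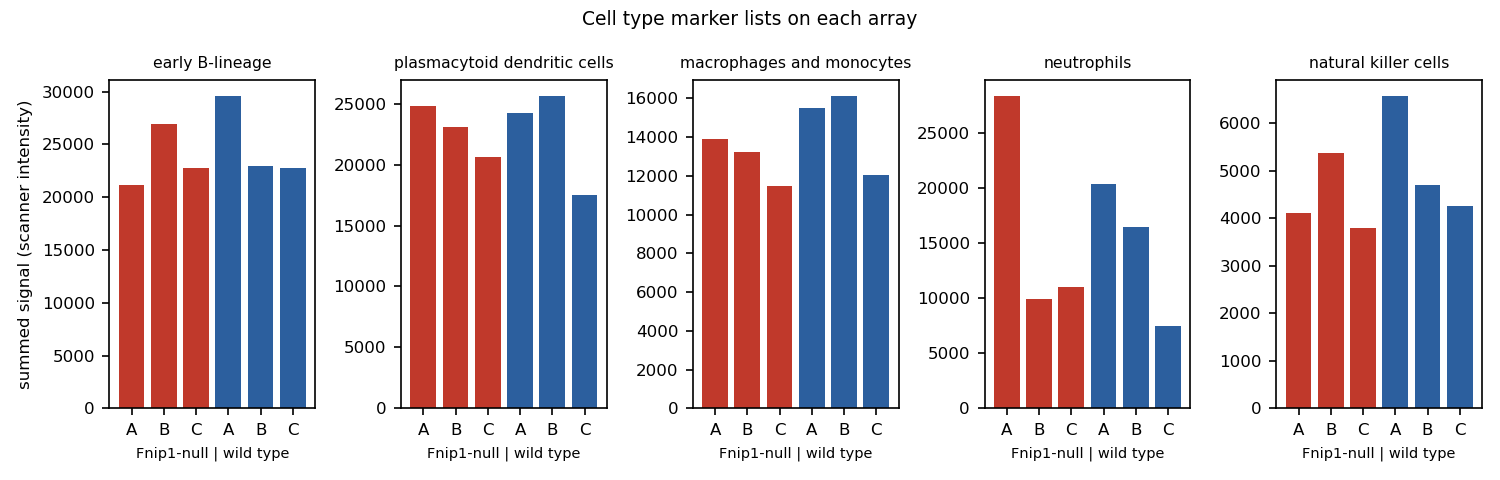
Summed scanner signal (vertical axis, not normalized) of the named probes of 5 marker lists on each array, red for arrays labelled Fnip1-null and blue for those labelled wild type. In wild type the plasmacytoid dendritic cell sum is highest on array B (25661) and lowest on array C (17490), as is the macrophage and monocyte sum, whereas the early B-lineage sum is highest on array A (29625). All 5 lists have their lowest wild-type sum on array C.

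The wider interferon pathway was followed in 76 further genes, of which 55 were tested, 16 were not detected well enough and 5 had no named probe. Here 6 rose and 4 fell, or 18.2% against the background of 13.1%, with a median log2 fold change of -0.02. In 19 of the 55 the groups were fully separated, or 34.5% against 33.0%. Of 5 interferon genes only Ifng was detected on at least 3 arrays, at 5.61, 6.23 and 5.99 against 7.08, 6.45 and 6.28. Each array labelled Fnip1-null lay below each wild-type array, with a log2 fold change of -0.66 that did not pass (limma adjusted p = 0.0787). Ifna2, Ifna4 and Ifnb1 were on no array well above background, and Ifna1 was detected on 1.

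Among receptors and kinases 1 of 5 rose, or 20% called against 13.1% of all tested genes. Jak2, the kinase of the interferon gamma receptor, stood at 9.57, 9.31 and 9.22 on the arrays labelled Fnip1-null and at 8.87, 8.79 and 8.71 on wild type. The groups were well apart, and Jak2 was 1.49-fold higher (limma adjusted p = 0.0139, 95% interval 1.23 to 1.80). A dimmer probe gave a log2 fold change of 0.39 (adjusted p = 0.0387). Tyk2 gave 0.42 and did not pass (limma adjusted p = 0.0539), but it passed under 4 other settings (no background correction, an offset of 50, a detection p under 0.01 and an intensity trend). Dimmer Tyk2 probes gave 0.60 (adjusted p = 0.098) and 0.78 (adjusted p = 0.0179). The receptor genes Ifngr1 and Ifngr2 gave -0.19 and -0.16 and did not pass. None of the 5 tested transcription factor genes passed, with Irf1 at 0.19 and Irf8 at 0.07. None of the 4 tested negative regulators passed.

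Of 8 tested genes listed as sensing adaptors, 1 rose and 2 fell, or 37.5% called against 13.1% of all tested genes. Cgas (Mb21d1 in older annotation), the DNA sensor, stood at 7.75, 7.65 and 7.64 on the arrays labelled Fnip1-null and at 8.38, 8.47 and 8.19 on wild type. Each array of the first group lay below each of the other, and Cgas was 1.59-fold lower (limma adjusted p = 0.00508, 95% interval 1.33 to 1.89). Sting1 (formerly Tmem173), the adaptor that acts below cGAS, read 7.43, 7.44 and 7.22 against 7.81, 8.11 and 7.81, also without overlap, and was 1.47-fold lower (95% interval 1.21 to 1.78, adjusted p = 0.0191). Sting1 lost its call without array C labelled Fnip1-null (log2 fold change -0.48, adjusted p = 0.0641) and without wild-type array B (-0.45, adjusted p = 0.0696). Ikbke, a kinase that activates interferon regulatory factors, rose 1.48-fold (95% interval 1.21 to 1.82, adjusted p = 0.021), and lost the call without array B labelled Fnip1-null (adjusted p = 0.0556), wild-type array B (0.0662) or wild-type array C (0.0614). The call was also lost with no detection filter (adjusted p = 0.0619). The other 5 tested genes of this group did not pass.

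Of 32 further induced genes tested, 4 rose and 2 fell, or 18.8% called against 13.1% of all tested genes. Nlrc5, the activator of MHC class I genes, stood at 9.72, 9.36 and 9.37 against 8.68, 8.74 and 8.71, 1.71-fold higher (95% interval 1.41 to 2.07, limma adjusted p = 0.00379), and kept its call with any 1 array left out. The MHC class I processing genes Tap1 and Psmb8 gave 0.23 and 0.08 and did not pass. Gbp7 rose 1.79-fold (95% interval 1.35 to 2.37, adjusted p = 0.0149), lost without array B labelled Fnip1-null (0.0602), without wild-type array C (0.0523) or with no detection filter (0.0811). Irgm2, which neighbours Igtp, rose 1.43-fold (95% interval 1.14 to 1.79, adjusted p = 0.0459). Ifi27, a mitochondrial protein gene, rose 1.45-fold (95% interval 1.20 to 1.75, adjusted p = 0.0183), while its relative Ifi27l2a was 1.66-fold lower (95% interval 1.20 to 2.31, adjusted p = 0.0479). With 1 array left out in turn, Irgm2 passed only without array C labelled Fnip1-null or wild-type array B, Ifi27 only without array A labelled Fnip1-null, and Ifi27l2a only without array B labelled Fnip1-null.

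Slfn2, a Schlafen gene linked to quiescence of lymphocytes, had the largest called difference of the pathway genes. It stood at 5.98, 6.18 and 5.99 on the arrays labelled Fnip1-null and at 7.20, 7.47 and 7.15 on those labelled wild type. The gap between the groups was far wider than the spread within them, and the means of 6.05 ± 0.11 and 7.27 ± 0.17 (log2, SD, n = 3 each) differed 2.33-fold (95% interval 1.92 to 2.83, limma adjusted p = 0.00031). Slfn2, Cgas and Jak2 kept their calls with any 1 array left out. The promoter windows of Slfn2, Cgas, Jak2 and Ikbke held neither motif in the letters searched, whereas those of Gbp7 and Irgm2 held both. No window was found for Sting1, Nlrc5, Ifi27 or Ifi27l2a. Of the 62 pathway genes with a window, 32.3% held the response element and 24.2% the gamma-activated site.

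**Figure D5:**
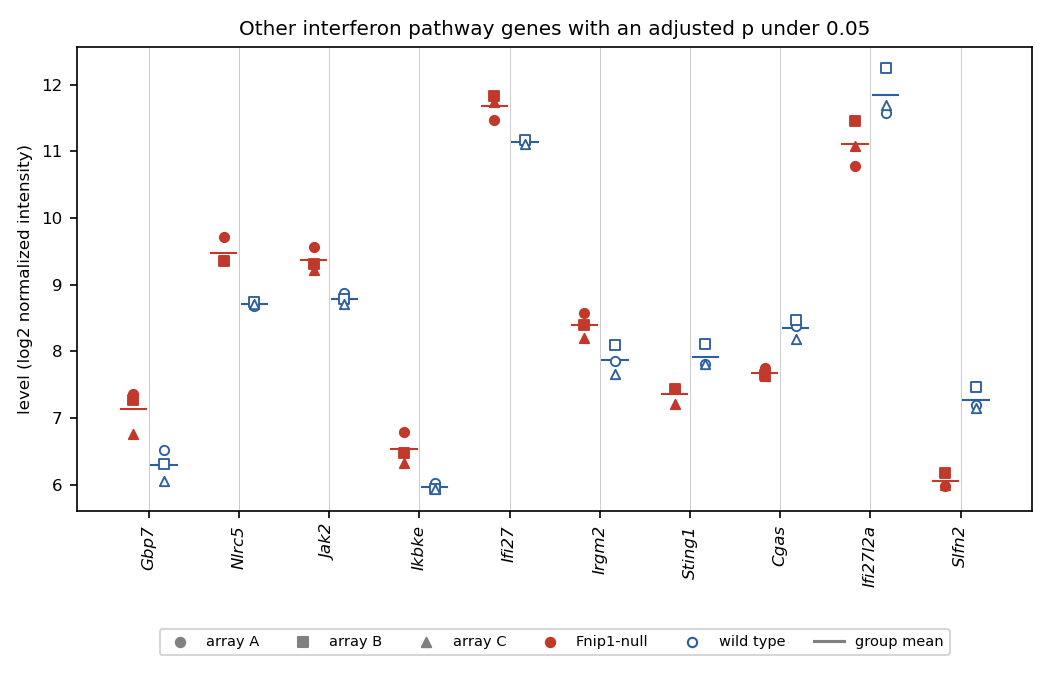
Level (log2 normalized intensity, vertical axis) on each array of the 10 pathway genes outside the set that had an adjusted p under 0.05, ordered by log2 fold change. Symbols are as in the plot of the members' levels. Gbp7, Nlrc5, Jak2, Ikbke, Ifi27 and Irgm2 are higher on the arrays labelled Fnip1-null and Sting1, Cgas, Ifi27l2a and Slfn2 lower, with no overlap between groups in any of them.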

How the data were processed

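Per the file headers, the deposited scanner table gives every probe's intensity and detection p-value by array, and no normalization by the authors is recorded. A second deposited table holds the authors' processed values, taken as log2 from their range; its background step, offset and log base are not stated, and the submitters' processing notes name affy without a version. Scanner columns name the group, with LPAB - Yugioh added for the Fnip1-null group, but no replicate number. Intensities were corrected by normexp from the detection p-values (offset 16), quantile normalized and put on a log2 scale (neqc, limma 3.58.1, R 4.3.3). Testing used lmFit and eBayes on 18172 probes, those whose detection p was under 0.05 on 3 or more arrays, with Benjamini-Hochberg adjustment over all of them. Intervals are at 95%. Of 45281 probes 34885 had 1 gene symbol in the platform annotation of GEO, 18 several and 10378 none; symbols were updated through a RefSeq gene table (GRCm38.p6), 34807 by gene number, 11 by accession, and 67 were kept. The probe of highest mean signal stands for its gene. The fit was tested on simulated data. All 35 members are accounted for, and every array's value is given for called members, Ifnar1, Ifnar2, Stat2, Irf7, Irf9 and Isg15, with others chosen after their values were seen. Members, lists and tests were chosen with earlier results of these data known, and the gamma-activated site was searched after the files were seen. Alternatives covered the background correction, normalization, offset, detection filter, variance model, authors' values, replicate block, probe choice and each array left out.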

Additional observations from a re-analysis of the deposited data

How the results depend on the processing

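The number of interferon-stimulated genes called higher was 2 in the setting reported. It was 1 with no detection filter (34 genes), 1 with the authors' processed values, 1 with these values and a replicate block (Ddx58 in each), and 1 with the second brightest probe of the 14 genes that have a further tested one (Oasl1). With 1 array left out it was between 1 and 3, and the number called lower was 0 throughout (between 0 and 0). Of the further pathway genes called higher, 6 as reported, 3 remained past the threshold with no detection filter and 3 with the replicate block, and 4 were called lower as reported against 2 with the second brightest probe (Ifitm1 and Samhd1, neither of them among the 4, with 21 genes tested). Jak2, Sting1, Ifi27 and Irgm2 did not pass with the replicate block (limma adjusted p = 0.0522, 0.0593, 0.0785 and 0.0863). Irgm2 also failed with no detection filter (limma adjusted p = 0.133) and with the authors' values (0.0903). Ifi27l2a failed with arrays scaled to a common median (limma adjusted p = 0.0567), no detection filter (0.191), an intensity trend (0.0853) and the authors' values (0.106). With 1 array left out the counts of further pathway genes called higher and lower ran between 2 and 5 and between 2 and 4. Stat2 did not pass with no detection filter (limma adjusted p = 0.105), the authors' values (0.0617) or the replicate block (0.0776); the cause was not tested. Over single members and alternative settings, 382 comparisons kept their side of the threshold, 7 lost a call and 3 gained one. A reversal was counted only where the sign changed and either fit was called, and none was found. As 25 of the 27 tested members were not called in the setting reported, most of the 382 are genes that stayed uncalled. With 1 array left out, 15 of the 27 changed sign in at least 1 fit. The replicate numbers appear only in the titles and could be used only with the authors' values. There same-numbered samples deviated with correlations of 0.17, -0.003 and 0.23, and differently numbered ones with correlations from -0.24 to 0.07. So few values do not settle whether the numbers pair the samples, and the main fit used no pairing. Over all genes, 763 were higher and 508 lower as reported, 377 and 252 with the replicate block, 289 and 249 with the second brightest probe (3818 genes), 452 and 303 without array B labelled Fnip1-null, and 481 and 325 without wild-type array B. Genes near background, such as the 7 untested members, cannot be judged on these arrays.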
